A study of Mus musculus with 12 samples.

Results

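The transcripts of 10 genes of the activator protein 1 (AP-1) family were followed through mouse development in Ly6G+ spleen cells. They are the Fos family members Fos, Fosb, Fosl1 and Fosl2, the Jun family members Jun, Junb and Jund, and the partner genes Atf3, Batf and Maff. The genes were taken as a list of named family members, all 10 were found among the 38887 genes of the count table, and all 10 were among the 15494 genes that passed the expression filter. The series sequenced polyadenylated RNA of Ly6G+ spleen cells, which the submitters call PMN-MDSC (polymorphonuclear myeloid-derived suppressor cells), at 4 ages of the mice: 2 days, 7 days, 14 days and 6 weeks. Each age had 3 libraries, and no treatment or genotype was named. The labels used here give neither strain, sex, batch nor the number of mice behind a library. Nothing states that replicate libraries were made from different animals, so a p-value here reflects only how far these libraries differ, and that spread may be technical.

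AP-1 is a family of dimeric transcription factors whose subunits share a basic leucine zipper. Fos proteins do not form stable dimers with each other and bind DNA mainly together with a Jun protein, whereas Jun proteins can also pair with each other and with Atf, Batf and Maf proteins. Several of these genes are immediate early genes, which means that their transcripts appear within minutes of a stimulus without new protein synthesis and decay quickly. In neutrophils and other myeloid cells, adhesion, cytokines, microbial products and the isolation of cells from tissue are all known to induce Fos, Jun and their relatives.

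The sequences that precede the transcription starts are shown because cyclic AMP response elements (CRE) in such promoters are bound by Creb, Atf and Jun proteins and are textbook entry points for the signals that induce Fos, Jun and Atf3. The RefSeq promoter table (GRCm38.p6) held 9 of the 10 genes, Fosl1 not being among them. Each line gives the 150 bases before a RefSeq transcription start, 5′ to 3′ on the gene's own strand, and capitals mark matches to TGACG (the CRE core, on either strand, so that CGTCA is its reverse complement) or to TGACNTCA (the full CRE and the Jun type). Fos lies at chr12:85473740-85473889 (plus strand), Fosb at chr7:19310046-19310195 (minus), Jun at chr4:95052223-95052372 (minus), Junb at chr8:84978749-84978898 (minus), Atf3 at chr1:191183334-191183483 (minus) and the second of 3 Maff windows at chr15:79347370-79347519 (plus).
Fos: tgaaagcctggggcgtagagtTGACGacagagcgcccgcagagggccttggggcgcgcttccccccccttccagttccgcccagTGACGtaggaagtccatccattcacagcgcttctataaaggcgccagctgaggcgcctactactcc
Fosb: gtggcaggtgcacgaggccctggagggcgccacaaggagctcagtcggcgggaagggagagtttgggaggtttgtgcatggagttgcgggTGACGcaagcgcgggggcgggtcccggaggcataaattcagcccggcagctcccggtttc
Jun: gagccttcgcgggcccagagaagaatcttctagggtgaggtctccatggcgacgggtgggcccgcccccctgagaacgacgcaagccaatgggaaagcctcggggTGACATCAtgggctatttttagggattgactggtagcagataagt
Junb: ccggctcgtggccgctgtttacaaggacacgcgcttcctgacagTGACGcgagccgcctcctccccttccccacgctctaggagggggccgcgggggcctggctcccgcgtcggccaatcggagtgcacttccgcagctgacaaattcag
Atf3: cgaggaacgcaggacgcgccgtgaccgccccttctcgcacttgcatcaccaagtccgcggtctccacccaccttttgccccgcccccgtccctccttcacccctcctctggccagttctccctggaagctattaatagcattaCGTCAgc
Maff: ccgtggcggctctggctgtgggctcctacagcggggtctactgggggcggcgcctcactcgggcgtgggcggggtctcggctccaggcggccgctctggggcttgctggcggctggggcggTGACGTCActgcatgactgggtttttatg

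The CRE core TGACG was found before the start of 6 of the 9 genes, namely Fos, Fosb, Junb, Atf3, Batf and Maff, and in 13.3% of the 32851 promoters in the table. The Fos window held 2 separate matches. The full CRE, TGACGTCA, which holds the core on both strands, was found for Maff alone among the 9 and in 1.36% of all promoters. The table holds 3 start windows for Maff, of which only the printed one, the second, has the full CRE and the first has no match, whereas the shares over all promoters count each window once. The wider pattern TGACNTCA was found for Jun and Maff and in 5.7% of all promoters. The AP-1 site itself, TGANTCA, was found for 0 of the 9 genes and in 4.24% of all promoters, and the CArG box, the site of serum response factor, for 0 of the 9 genes and in 0.916% of all promoters. Both strands were searched. A match describes letters in this window and does not show that a factor binds there.

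Library totals ran from 34495767 to 38795913 counts, and levels are given as CPM, the count scaled by the normalized library size. The sort label was checked against 12 neutrophil genes, including Ly6g, S100a8 and S100a9. Their summed level was 70800 to 92900 CPM at 2 days, 73400 to 81500 CPM at 7 days, 88900 to 104000 CPM at 14 days and 84300 to 104000 CPM at 6 weeks, and all 12 had counts at every age. Replicate 2 at 2 days and replicate 1 at 14 days stood apart from their partners in many genes, with normalization factors of 0.828 and 0.918. Summed counts of 4 Y-linked genes were 3051 to 3299 per library at 2 days and 1816 to 4010 at 7 days, but 0 or 1 at 14 days and 6 weeks. Sex and age therefore cannot be told apart when either of the older ages is compared with either of the younger ones.

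The AP-1 transcripts were low at 7 days and high on either side of it. Summed over the 10 genes, the level was 9466, 14650 and 9459 CPM in the 3 libraries at 2 days, 2855, 3050 and 2892 CPM at 7 days, 12230, 9257 and 10460 CPM at 14 days, and 7126, 5474 and 7214 CPM at 6 weeks. Libraries of 7 days lay below every library of the other ages, and the 6-week libraries lay between them and all 2-day and 14-day libraries. These are bulk libraries, so fewer cells of a type and less RNA per cell cannot be told apart.

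Tested gene by gene with edgeR's quasi-likelihood test and Benjamini-Hochberg adjustment over all 15494 genes at a threshold of 0.05, 9 of the 10 genes differed among the 4 ages, where 69.2% of all tested genes did. Fosl2 was the exception, with an adjusted p of 0.293 in that edgeR test. At 7 days against 2 days, 7 genes were lower and 0 were higher. The background was 48.7% of all genes called in either direction and 25.8% called lower. The median log2 fold change was -1.41 over the 10 genes and -0.01 over all tested genes.

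At 14 days against 7 days, 6 genes were higher and 0 were lower. Of all genes, 45.9% were called and 24% were called higher. The median log2 fold change was 1.93 over the 10 genes and 0.02 over all genes. At 6 weeks against 14 days, 4 genes were lower and 0 were higher, where 18.9% of all genes were called and 9.68% were called lower. The count of 4 was 7 without replicate 2 at 2 days, with 1 of the 7 higher, and 8 under scaling by library totals alone. The medians of this step were -0.68 over the 10 genes and 0.00 over all genes. The 3 steps share libraries (7 days ends the first and begins the next), so a low or high age enters 2 of them with opposite sign.

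**Figure D1:**
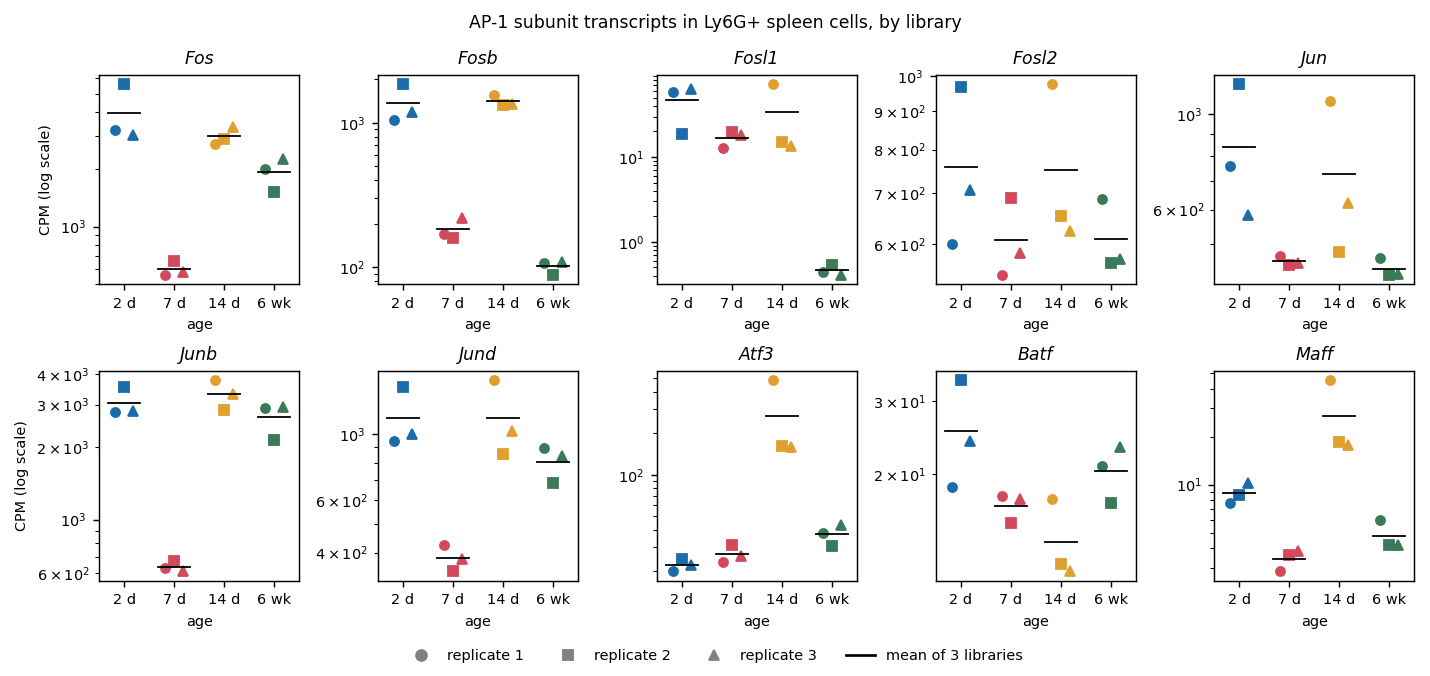
Level of each of the 10 genes in CPM (log axis, a different range in each panel) against age, with a point per library, a marker shape per replicate number and a black line at the mean of the 3 libraries. Fos, Fosb, Junb and Jund were lowest or next to lowest at 7 days, Atf3 and Maff were highest at 14 days, and Fosl1 at 6 weeks lay between 0.41 and 0.53 CPM.

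**Figure D2:**
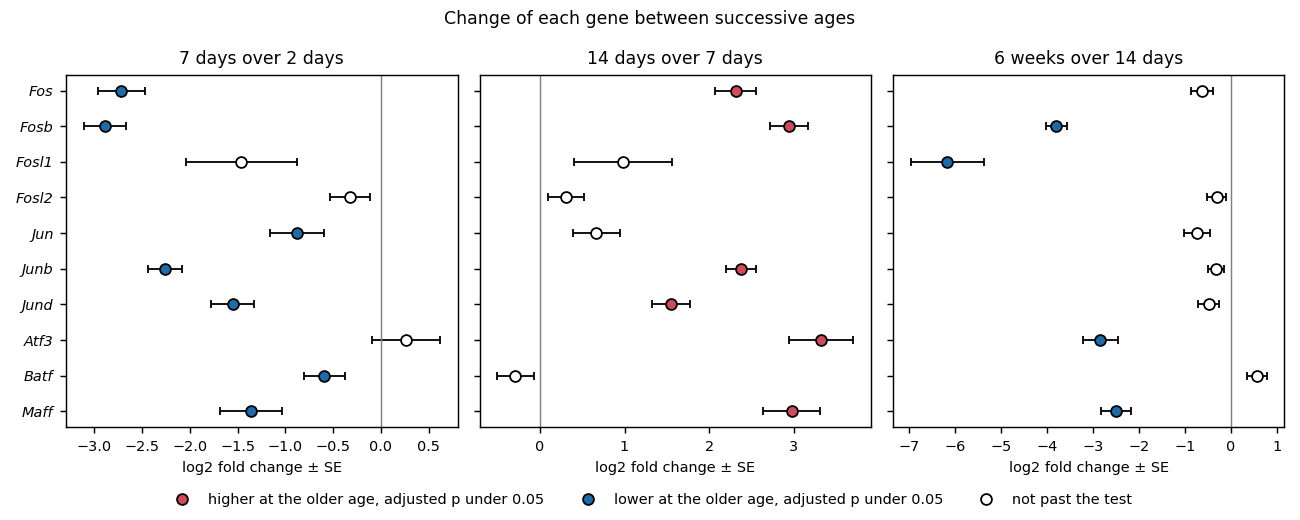
Log2 fold change of each gene (points, with bars of 1 SE) at 7 days over 2 days, 14 days over 7 days and 6 weeks over 14 days, with the older age over the younger and a different axis range in each panel. Blue points were lower and red points higher at an adjusted p under 0.05, and open points did not pass. The first panel holds 7 blue points, the middle panel 6 red points and the last panel 4 blue points.

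Fos (ENSMUSG00000021250, chr12:85473890-85477273, plus strand, GRCm38) encodes the classical Fos subunit. It measured 3209.5, 5606 and 3036 CPM at 2 days, 558, 662 and 578 CPM at 7 days, 2725, 2879.8 and 3318 CPM at 14 days, and 2007, 1527 and 2253 CPM at 6 weeks. The 7-day libraries were the lowest, the 6-week libraries were intermediate, and the 2-day and 14-day libraries overlapped. Fos averaged 599 ± 55.5 CPM at 7 days and 3950.5 ± 1437 CPM at 2 days (SD, n = 3 each), a fall by 2.72 on the log2 scale (SE 0.25, adjusted p = 5.06e-06 by edgeR). At 14 days it averaged 2974 ± 307 CPM and was higher than at 7 days by 2.31 (SE 0.24, adjusted p = 2.08e-05 by edgeR). At 6 weeks it averaged 1929 ± 369 CPM, which was higher than at 7 days by a log2 fold change of 1.69 (SE 0.24, adjusted p = 0.00011 by edgeR). Against 2 days, the 6-week level fell by 1.03 on the log2 scale (SE 0.23, adjusted p = 0.00374 by edgeR). The 6-week libraries also lay below the 14-day libraries, but this difference did not pass in edgeR (log2 fold change -0.62, adjusted p = 0.079). It passed with both libraries that stand apart left out, at -0.70 (adjusted p = 0.00503 by edgeR).

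Fosb (ENSMUSG00000003545, chr7:19302696-19310051, minus strand) encodes a Fos protein that also exists as the long-lived truncated splice form known from the brain, and a count per gene does not separate the forms. It measured 1044.5, 1851 and 1182 CPM at 2 days, 169, 159.6 and 221 CPM at 7 days, 1555, 1329.7 and 1351 CPM at 14 days, and 108, 89.0 and 109 CPM at 6 weeks. Libraries of 2 and 14 days were high and overlapped, the 7-day libraries were far lower, and the 6-week libraries were lower still. Fosb averaged 183 ± 32.9 CPM at 7 days and 1359 ± 431 CPM at 2 days (SD, n = 3 each), with a log2 fold change of -2.89 (SE 0.22, adjusted p = 1.8e-06 by edgeR). The 14-day mean of 1412 ± 124 CPM was 7.70-fold above the 7-day mean (adjusted p = 2.65e-06 by edgeR). The 6-week mean of 102 ± 11.2 CPM was 13.8-fold below the 14-day mean (log2 fold change -3.79, SE 0.23, adjusted p = 2.13e-06 by edgeR). Unlike Fos, Fosb was also lower at 6 weeks than at 7 days, by a log2 fold change of -0.85 (SE 0.21, adjusted p = 0.00478 by edgeR).

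Fosl1 (ENSMUSG00000024912, chr19:5447547-5455946, plus strand) encodes Fra-1, a Fos protein without a transactivation domain that is itself a target of AP-1. Its values were 57.9, 18.9 and 63.3 CPM at 2 days, 12.8, 19.6 and 18.4 CPM at 7 days, 72.4, 14.9 and 13.3 CPM at 14 days, and 0.45, 0.53 and 0.41 CPM at 6 weeks. The 3 younger ages overlapped, and the 6-week libraries were far below all of them, resting on 16, 20 and 15 counts. Against 14 days, the 6-week level had a log2 fold change of -6.17 (SE 0.79, adjusted p = 0.000332 by edgeR), or of -4.92 without replicate 1 at 14 days. Against 7 days the log2 fold change was -5.19 (SE 0.78, adjusted p = 0.000187 by edgeR), and against 2 days it was -6.65 (SE 0.80, adjusted p = 4.51e-05 by edgeR). The 7-day level did not differ from the 2-day level in the edgeR test over all libraries (log2 fold change -1.46, adjusted p = 0.0535). It passed in edgeR without the low-count filter (adjusted p = 0.033), with only these ages in the fit (0.0248), without replicate 2 at 2 days (0.0166) and without replicate 1, 2 or 3 at 14 days (0.0047, 0.0489 and 0.0364). With both libraries that stand apart left out, it was -1.82 (adjusted p = 1.39e-06 by edgeR). Of the 2033 exon bases of Fosl1, 1163 are shared with Ccdc85b on the opposite strand, whose level averaged 7.79, 4.43, 4.59 and 4.37 CPM at 2 days, 7 days, 14 days and 6 weeks. The strandedness of the libraries is not given in the sources used here, and the reads of such a pair cannot be told apart.

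Replicate 2 at 2 days had the lowest Fosl1 level of its age, and its marker levels of other cell types differed from those of its partners in both directions. The summed level of 11 mast cell markers was 3930 CPM in it, against 6430 and 6310 CPM in its partners, and that of 9 stromal and endothelial markers was 59.1 CPM, against 138 and 132 CPM. Its 14 monocyte and macrophage markers summed to 1310 CPM, against 938 and 1030 CPM, and its 8 dendritic cell markers to 103 CPM, against 67.2 and 61.4 CPM. Replicate 1 at 14 days, with the highest Fosl1 level of its age, had the lowest erythroid and B cell sums of that age, 117 and 185 CPM. Their part in the Fosl1 level was not tested.

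Fosl2 (ENSMUSG00000029135, chr5:32135801-32157842, plus strand) encodes Fra-2, the other Fos protein without a transactivation domain. It measured 601, 969 and 708 CPM at 2 days, 547, 689 and 585 CPM at 7 days, 976, 654 and 624 CPM at 14 days, and 688, 566 and 573 CPM at 6 weeks. All 4 ages overlapped, and Fosl2 passed in 0 of the 6 edgeR comparisons. Its largest difference in size was a log2 fold change of -0.32 at 7 days against 2 days (SE 0.21, adjusted p = 0.22 by edgeR).

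Jun (ENSMUSG00000052684, chr4:95049034-95052222, minus strand) encodes c-Jun, the strongest activator of the Jun family. It measured 756, 1171 and 582 CPM at 2 days, 469.8, 447 and 451 CPM at 7 days, 1073, 479 and 620.1 CPM at 14 days, and 463, 424 and 426 CPM at 6 weeks. Libraries of 7 days and 6 weeks were low and close to each other, and the 2-day and 14-day libraries were higher but spread widely. Jun averaged 456 ± 12.2 CPM at 7 days and 837 ± 303 CPM at 2 days (SD, n = 3 each), with a log2 fold change of -0.88 (SE 0.28, adjusted p = 0.0218 by edgeR). This call was lost without replicate 2 at 2 days, when the log2 fold change was -0.53 (adjusted p = 0.101 by edgeR), and also when any of the 3 libraries of 7 days was left out. The 6-week mean of 438 ± 21.7 CPM was also below the 2-day mean, by a log2 fold change of -0.93 (SE 0.28, adjusted p = 0.0191 by edgeR), a call lost without replicate 2 at 2 days or replicate 2 or 3 at 6 weeks. All 14-day libraries lay above the 7-day libraries, without passing in edgeR (log2 fold change 0.67, adjusted p = 0.0691).

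Junb (ENSMUSG00000052837, chr8:84974484-84978718, minus strand) encodes a Jun protein that restrains proliferation of myeloid progenitors in mice. It measured 2804, 3535 and 2830.1 CPM at 2 days, 629, 676 and 611 CPM at 7 days, 3776, 2852 and 3327 CPM at 14 days, and 2899, 2133 and 2938 CPM at 6 weeks. Only the 7-day libraries stood apart, and the libraries of the other 3 ages overlapped. Junb averaged 639 ± 33.4 CPM at 7 days and 3057 ± 415 CPM at 2 days (SD, n = 3 each), with a log2 fold change of -2.26 (SE 0.18, adjusted p = 2.13e-06 by edgeR). At 14 days it averaged 3318 ± 462 CPM, higher than at 7 days by a log2 fold change of 2.38 (SE 0.18, adjusted p = 2.63e-06 by edgeR). At 6 weeks it averaged 2657 ± 454 CPM, higher than at 7 days by 2.06 (SE 0.18, adjusted p = 3.35e-06 by edgeR). Differences among the other 3 ages did not pass. Junb shares 173 of its 2301 exon bases with Prdx2 on the opposite strand, which averaged 115 CPM at 7 days and 22.7 to 44.4 CPM at the other ages.

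Jund (ENSMUSG00000071076, chr8:70698949-70700616, plus strand) encodes the Jun protein that many resting cells hold constitutively. It measured 947, 1433 and 1002 CPM at 2 days, 426, 347 and 381 CPM at 7 days, 1508, 856 and 1019 CPM at 14 days, and 896, 682 and 843 CPM at 6 weeks. The 7-day libraries were again below all others, and the 6-week libraries lay below those of 2 days and overlapped those of 14 days. The log2 fold change was -1.55 at 7 days over 2 days (SE 0.22, adjusted p = 0.000151 by edgeR), and 1.55 at 14 days over 7 days (SE 0.22, adjusted p = 0.000189 by edgeR). It was 1.07 at 6 weeks over 7 days (SE 0.22, adjusted p = 0.00166 by edgeR). The gene shares 877 of its 1668 exon bases with the predicted gene Gm11175 on the opposite strand. Gm11175 averaged 103, 36.8, 128 and 91.8 CPM from 2 days to 6 weeks, and its reads and those of Jund cannot be told apart there.

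Atf3 (ENSMUSG00000026628, chr1:191170296-191218039, minus strand) encodes a stress-induced factor that represses inflammatory genes in macrophages. It measured 20.1, 24.5 and 22.2 CPM at 2 days, 23.4, 31.1 and 25.7 CPM at 7 days, 482, 161 and 159 CPM at 14 days, and 38.2, 30.5 and 43.7 CPM at 6 weeks. The 14-day libraries were far above all others, and replicate 1 was the highest of them. Atf3 averaged 267 ± 186 CPM at 14 days and 26.7 ± 3.96 CPM at 7 days (SD, n = 3 each), with a log2 fold change of 3.32 (SE 0.38, adjusted p = 3.89e-05 by edgeR). Against 2 days the 14-day log2 fold change was 3.59 (SE 0.39, adjusted p = 3.72e-05 by edgeR). Without replicate 1 at 14 days these values were 2.58 and 2.85, and both still passed. At 6 weeks Atf3 averaged 37.5 ± 6.60 CPM and was 7.13-fold lower than at 14 days (log2 fold change -2.83, SE 0.37, adjusted p = 0.000374 by edgeR), or -2.09 without replicate 1 at 14 days. The 7-day level did not differ from the 2-day level in edgeR (log2 fold change 0.26, adjusted p = 0.561), where Fos, Fosb, Junb and Jund were all lower.

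Maff (ENSMUSG00000042622, chr15:79346621-79359076, plus strand) encodes a small Maf protein, which lacks a transactivation domain. It measured 7.64, 8.56 and 10.3 CPM at 2 days, 2.87, 3.63 and 3.82 CPM at 7 days, 44.9, 18.4 and 17.8 CPM at 14 days, and 5.96, 4.18 and 4.21 CPM at 6 weeks. The order was 14 days, 2 days, 6 weeks and 7 days, with no overlap between any neighbours in it. Maff was lower at 7 days than at 2 days by a log2 fold change of -1.36 (SE 0.33, adjusted p = 0.0047 by edgeR). It was higher at 14 days than at 7 days by a log2 fold change of 2.97 (SE 0.34, adjusted p = 3.81e-05 by edgeR), and lower at 6 weeks than at 14 days by -2.50 (SE 0.33, adjusted p = 0.000396 by edgeR). The 14-day level was also above the 2-day level, by a log2 fold change of 1.61 (SE 0.32, adjusted p = 0.00284 by edgeR). The difference between 6 weeks and 7 days did not pass in edgeR (log2 fold change 0.48, adjusted p = 0.247).

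Batf (ENSMUSG00000034266, chr12:85686669-85709087, plus strand) encodes a factor that pairs with Jun proteins and is known for its roles in lymphocytes and dendritic cells. It measured 18.7, 33.6 and 24.0 CPM at 2 days, 17.7, 15.3 and 17.5 CPM at 7 days, 17.5, 12.2 and 11.7 CPM at 14 days, and 20.9, 17.1 and 23.2 CPM at 6 weeks. The 2-day libraries were above those of 7 and 14 days, and the other ages overlapped. Batf averaged 13.8 ± 3.18 CPM at 14 days and 25.4 ± 7.52 CPM at 2 days (SD, n = 3 each), with a log2 fold change of -0.88 (SE 0.22, adjusted p = 0.00984 by edgeR). That call had an adjusted p of 0.0501 by edgeR without replicate 3 at 14 days. With only these ages in the fit, its adjusted p was 0.0564 by edgeR. The 7-day level averaged 16.8 ± 1.32 CPM and was lower than at 2 days by a log2 fold change of -0.59 (SE 0.21, adjusted p = 0.0361 by edgeR). This second difference was lost under library-total scaling (-0.41, adjusted p = 0.0649 by edgeR) and without replicate 2 at 2 days (-0.32, adjusted p = 0.179 by edgeR). It was also lost without the low-count filter, with the replicate block and with only these ages in the fit. The same held without replicate 3 at 2 days, replicate 2 at 14 days or any single library of 7 days. At 14 days over 7 days, where 6 of the genes were higher, the log2 fold change of Batf was -0.29 and did not pass (adjusted p = 0.29 by edgeR).

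The wider pairs of ages set the ends of the series side by side. At 14 days against 2 days, 3 of the 10 genes were called, Atf3 and Maff higher and Batf lower, where 25.1% of all genes were called. Fos, Fosb, Jun, Junb and Jund had log2 fold changes between -0.41 and 0.12 in this pair and did not pass. At 6 weeks against 2 days, 5 genes were lower, namely Fos, Fosb, Fosl1, Jun and Maff, where 40.4% of all genes were called and 20.7% were called lower. The count of 5 was 3 without replicate 2 at 2 days, replicate 2 at 6 weeks or replicate 3 at 6 weeks. The Maff difference was the smallest of the 5, at a log2 fold change of -0.88 (SE 0.32, adjusted p = 0.045 by edgeR). This Maff call was lost in limma-voom (adjusted p = 0.0896 by limma-voom). It was also lost without any single library of 2 days or 7 days, and without replicate 2 or 3 at 6 weeks. At 6 weeks against 7 days, Fos, Junb and Jund were higher and Fosb and Fosl1 were lower, 5 of the 10 genes, where 51% of all genes were called. A share of 5 in 10 is near that background. These pairs share libraries with the successive steps and are not independent of them.

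Divided by exon length, the levels of different genes can be compared roughly. The length was the union of all annotated exons of a gene, 6243 bases for Fosb, and may exceed that of the expressed transcript. Shares and ratios between genes depend on it. Each gene's CPM per kb of exon was taken as a share of the sum over the 10 genes. Fos held 38.5% ± 3.71, 24.7% ± 1.82, 31.5% ± 5.87 and 30.2% ± 1.62 of that sum at 2 days, 7 days, 14 days and 6 weeks (SD, n = 3 each). Junb held 31.5% ± 3.52, 26.9% ± 0.816, 35.4% ± 0.374 and 42.6% ± 0.708. Fos and Junb therefore held the largest mean shares at every age. Jund came next, with 15.8% ± 0.659, 22.4% ± 2.58, 16.4% ± 2.57 and 17.9% ± 0.869. Jun held 13.9% ± 0.547 at 7 days, against 5.14% to 6.02% on average at the other ages, and Fosl2 held 6.07% ± 0.629 at 7 days, against 1.83% to 2.35%. Fosb held 5.02% ± 0.408, 2.85% ± 0.569, 5.59% ± 0.425 and 0.606% ± 0.0316. Atf3 reached 2.91% ± 1.63 at 14 days, and Fosl1, Batf and Maff stayed at or below 1.16% on average at every age.

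**Figure D3:**
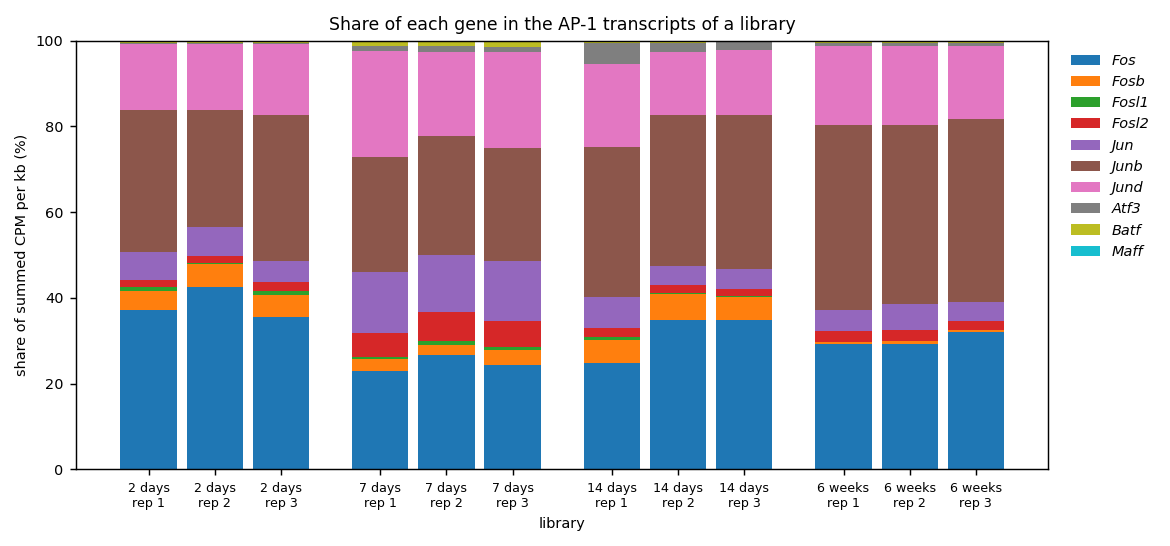
Share of each of the 10 genes in their summed CPM per kb (vertical axis, percent) in each library, with libraries grouped by age along the horizontal axis. Fos and Junb are the widest bands on average at every age, Jun and Fosl2 are widest at 7 days (13.9% and 6.07% on average), and the Fosb band is thinnest at 6 weeks (0.606%).

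Ratios within a library do not depend on how libraries were scaled, and they show how unequally the subunits changed. Jun was 51.6% ± 3.42 of Junb per kb at 7 days and 19.4% ± 4.55 at 2 days, and it was 15.3% ± 4.52 at 14 days and 12.1% ± 1.97 at 6 weeks (SD, n = 3 each). Fosl2 was 24.6% ± 0.751 of Fos at 7 days and 4.81% ± 0.768 at 2 days, and it was 6.26% ± 2.16 at 14 days and 7.84% ± 1.48 at 6 weeks. For both ratios the 7-day libraries lay above all others. Fosb was 2.01% ± 0.19 of Fos at 6 weeks, against 18.1% ± 3.15 at 14 days, 11.6% ± 2.67 at 7 days and 13.1% ± 1.36 at 2 days, and the 6-week libraries lay below all others. An exact two-sided permutation test gave p = 0.1 for each of these separated pairs, which is the smallest p that 3 libraries against 3 allow, so this test cannot pass 0.05 here.

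**Figure D4:**
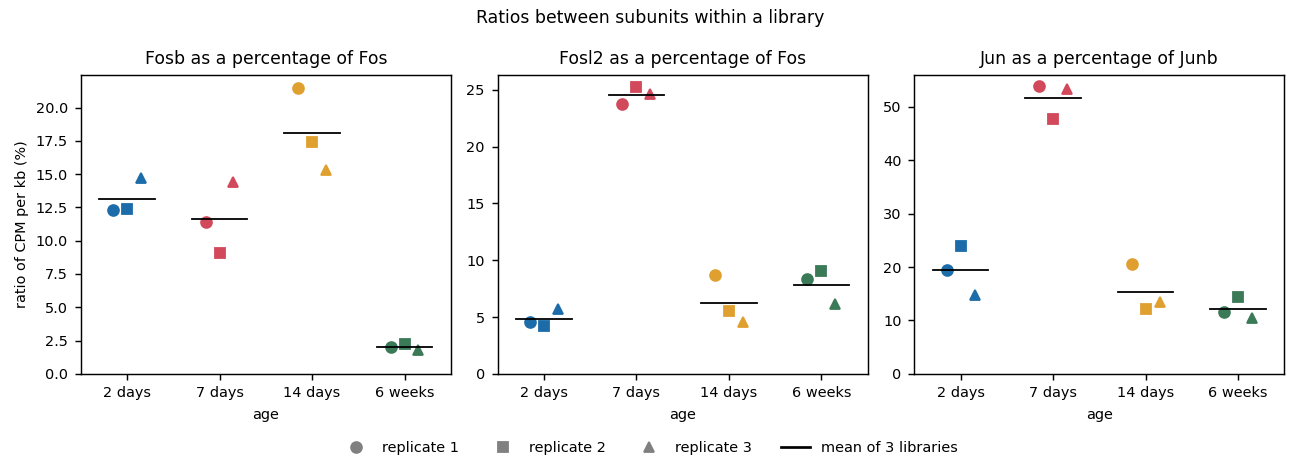
Ratio of CPM per kb within a library (percent, axes from 0) for Fosb to Fos, Fosl2 to Fos and Jun to Junb, by age, with a point per library and a black line at the mean of 3. The 7-day libraries are highest for Fosl2 to Fos (mean 24.6%) and Jun to Junb (mean 51.6%), and the 6-week libraries are lowest for Fosb to Fos (mean 2.01%).

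Other immediate early genes moved at the same ages. Of 20 such genes outside the AP-1 family, 13 were lower and 1 was higher at 7 days than at 2 days. Of all genes, 48.7% were called in this pair and 25.8% were called lower. The median log2 fold change was -1.17 over the 20 genes and -0.01 over all genes. At 14 days, 16 of the 20 were higher than at 7 days and 0 were lower (median 1.62, against 0.02 over all genes). Here 45.9% of all genes were called and 24% were called higher. Dusp1, a phosphatase that switches off MAP kinases, averaged 444 ± 66.3 CPM at 7 days and 4260 ± 1930 CPM at 2 days, with a log2 fold change of -3.26 (SE 0.31, adjusted p = 7.04e-06 by edgeR). Egr1, a zinc finger factor induced with Fos, averaged 390 ± 38.8 CPM at 7 days and 2870 ± 407 CPM at 2 days (log2 fold change -2.88, SE 0.24, adjusted p = 2.75e-06 by edgeR). Against 7 days, 10 of the 20 were higher and 1 was lower at 6 weeks, a called share near the 51% of all genes. Dusp1 was among those higher, at 2930 ± 687 CPM at 6 weeks, and the lower gene was Nr4a2, at 0.605 ± 0.267 CPM at 6 weeks against 2.93 ± 0.359 CPM at 7 days (log2 fold change -2.27, adjusted p = 0.0119 by edgeR). Without replicate 1 at 6 weeks, 0 of the 20 were lower. Against 14 days, 9 were lower and 1 was higher at 6 weeks, where 18.9% of all genes were called. At 14 days against 2 days 6 were higher and 1 was lower, where 25.1% were called. At 6 weeks against 2 days 3 were higher and 7 were lower, where 40.4% were called.

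Heat-shock genes moved the opposite way at 7 days. All 13 tested genes of a list of 14 chaperones and co-chaperones were higher at 7 days than at 2 days (median log2 fold change 2.95), and all 13 were lower at 14 days (median -3.45) and at 6 weeks (median -3.41) than at 7 days. Cryab had too few counts to be tested. These counts were 13 of 13 whichever library was left out. The summed level of the heat-shock genes was 39440, 34410 and 36110 CPM in the 7-day libraries, against 1448 to 2690 CPM in the libraries of the other ages. Hspa1a, an inducible heat-shock protein of the Hsp70 family, averaged 11800 ± 1390 CPM at 7 days and 14.4 ± 8.61 CPM at 2 days (log2 fold change 9.69, SE 0.50, adjusted p = 2.12e-07 by edgeR). It averaged 88.3 ± 22.4 CPM at 6 weeks. Hspa1b is a near-identical copy of Hspa1a, so the division of reads between them is uncertain, and it averaged 8750 ± 961 CPM at 7 days and 17.7 ± 13.1 CPM at 2 days. The part of what raised the heat-shock genes in the AP-1 levels was not tested.

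**Figure D5:**
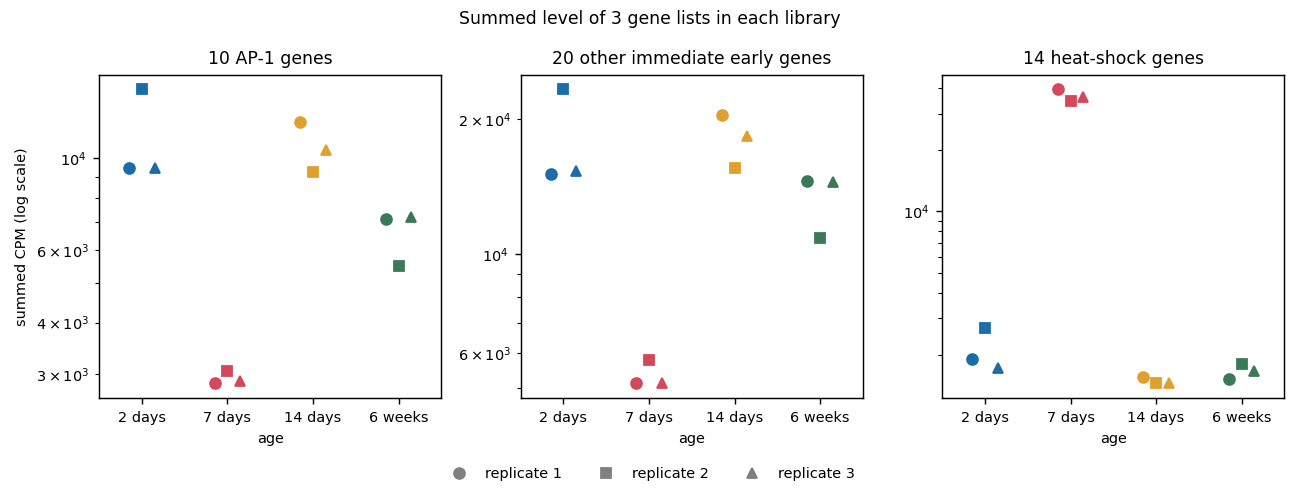
Summed level in CPM (log axes with different ranges) of the 10 AP-1 genes, 20 other immediate early genes and 14 heat-shock genes by age, with a point per library. The 7-day libraries are the lowest in the first panels, at 2855 to 3050 CPM and 5125 to 5766 CPM, and the highest in the last, at 34410 to 39440 CPM.

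Genes known as AP-1 targets moved in both directions. Of 22 tested genes in a list of 26, 12 were lower and 3 were higher at 7 days than at 2 days (median log2 fold change -0.64), where 48.7% of all genes were called. The count of 12 was 5 without replicate 1 and 6 without replicate 3 at 7 days. The chemokine genes Cxcl2 and Ccl2 were the most changed of these. Cxcl2 averaged 37.1 ± 7.21 CPM at 7 days and 445 ± 39.2 CPM at 2 days (log2 fold change -3.59, SE 0.44, adjusted p = 4.7e-05 by edgeR), and Ccl2 averaged 0.986 ± 0.228 CPM at 7 days and 7.57 ± 0.324 CPM at 2 days (log2 fold change -2.94). At 14 days against 7 days 10 were higher and 5 lower, at 6 weeks against 14 days 4 were higher and 8 lower, and at 6 weeks against 7 days 9 were higher and 6 lower. All genes were called at 45.9%, 18.9% and 51% in these 3 pairs. The count of 5 was 3 without replicate 2 at 7 days or replicate 2 at 14 days, and the count of 4 was 2 without replicate 1 at 6 weeks. The metallothionein gene Mt2 was lower at 6 weeks than at 7 days, at 0.153 ± 0.0791 CPM and 5.04 ± 0.858 CPM (log2 fold change -5.00), and the elastase gene Mmp12 was higher, at 3.40 ± 1.05 CPM at 6 weeks and 0.152 ± 0.0652 CPM at 7 days (log2 fold change 4.45). At 14 days against 2 days 7 were higher and 5 lower, and at 6 weeks against 2 days 7 were higher and 7 lower, where 25.1% and 40.4% of all genes were called.

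Related basic leucine zipper factors outside the list of 10 showed no common direction. Of 22 such genes, 5 were higher and 5 lower at 7 days than at 2 days, a called share near the 48.7% of all genes, and 8 were higher and 2 lower when libraries were scaled by their totals alone. Without replicate 2 at 2 days these counts were 8 and 3, and without replicate 1 or 3 at 7 days the count of lower genes was 3. Maf, a large Maf factor of macrophages, averaged 61.0 ± 1.42 CPM at 7 days and 16.9 ± 4.82 CPM at 2 days (log2 fold change 1.86). At 14 days against 7 days 5 were higher and 5 lower, again near the background of 45.9%. Against 7 days, 8 were higher and 3 lower at 6 weeks, a called share near the 51% of all genes. This split was 7 and 8 under library-total scaling, and the count of 3 was 5 without replicate 2 at 2 days. Batf2, an interferon-inducible relative of Batf, averaged 1.90 ± 0.272 CPM at 6 weeks and 0.397 ± 0.0287 CPM at 7 days (log2 fold change 2.25). Atf5 averaged 10.3 ± 0.246 CPM at 6 weeks and 42.2 ± 4.62 CPM at 7 days (log2 fold change -2.04).

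Transcripts of the kinases that signal to AP-1 moved in both directions, with more called lower than higher at 7 days against 2 days. A list held 20 genes for MAP kinases, their activating kinases and the ternary complex factors that act on the Fos promoter. Of these, 2 were higher and 9 lower at 7 days than at 2 days, and 4 were higher and 6 lower under library-total scaling. Of all genes, 48.7% were called in this pair and 25.8% were called lower. The count of 2 was 4 without replicate 2 at 2 days. The median log2 fold change was -0.37, against -0.01 over all genes. Mapk11, the beta form of p38, averaged 3.51 ± 0.394 CPM at 7 days and 0.782 ± 0.136 CPM at 2 days (log2 fold change 2.16), and its activator Map2k6 averaged 5.34 ± 0.203 CPM at 7 days and 2.03 ± 0.277 CPM at 2 days (log2 fold change 1.39). These were the only 2 called higher. Among the 9 lower genes, Mapk13 averaged 166 ± 22.4 CPM at 7 days and 394 ± 62 CPM at 2 days (log2 fold change -1.25). Map2k3, another p38 activator, averaged 66.5 ± 7.49 CPM at 7 days and 134 ± 36.4 CPM at 2 days (log2 fold change -1.01). At 14 days against 7 days 8 of the 20 were higher and 1 was lower. Here 45.9% of all genes were called and 24% were called higher. The count of 8 was 4 without replicate 1 and 3 without replicate 3 at 7 days, and 5 without replicate 1 at 14 days. Against 7 days, 6 were higher at 6 weeks and 2 lower, where 51% of all genes were called. This split was 4 and 4 under library-total scaling, and the count of 6 was 10 without replicate 2 at 2 days. Map2k3 averaged 158 ± 10.2 CPM at 6 weeks and 66.5 ± 7.49 CPM at 7 days (log2 fold change 1.25), and Map3k5, a stress kinase, averaged 177 ± 17.2 CPM at 6 weeks and 84.6 ± 7.85 CPM at 7 days (log2 fold change 1.07).

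Markers of other spleen cells also differed with age. Summed over 13 erythroid genes, the level was 3850 to 6510 CPM at 7 days, against 516 to 969 CPM at 2 days, 117 to 405 CPM at 14 days and 208 to 663 CPM at 6 weeks, and 12 of the 13 were higher at 7 days than at 2 days. The 14 monocyte and macrophage genes summed to 2300 to 2340 CPM at 7 days and 4270 to 4590 CPM at 6 weeks, against 938 to 1310 CPM at 2 days and 1320 to 1670 CPM at 14 days. The 11 mast cell genes summed to 3930 to 6430 CPM at 2 days, against 615 to 822 CPM at 7 days, 1020 to 1100 CPM at 14 days and 1420 to 1640 CPM at 6 weeks, and 2 of the 11, Tpsab1 and Mrgprb1, were at 0 at both later ages. After 2 days that sum was mostly Hdc, the histamine-forming enzyme, which averaged 1370, 599, 1020 and 1480 CPM from 2 days to 6 weeks. The mast cell protease gene Tpsb2 averaged 1400, 19.6, 0.24 and 0.0722 CPM, and Cpa3 averaged 693, 13.5, 0.752 and 0.762 CPM. The 8 dendritic cell genes summed to 256 to 299 CPM at 14 days and 212 to 263 CPM at 6 weeks, against 44.1 to 52.0 CPM at 7 days and 61.4 to 103 CPM at 2 days. At 7 days against 2 days, Itgax was lower, at 10.2 ± 0.275 CPM and 52.8 ± 29.7 CPM, whereas Cd209a, Xcr1, Zbtb46 and Ccr7 were higher. The 9 B cell genes summed to 636 to 720 CPM at 7 days, against 294 to 406 CPM at 2 days, and the summed eosinophil and basophil, T and NK cell, megakaryocyte and platelet, and stromal and endothelial genes were at 17.9 to 330 CPM in every library. The summed neutrophil level at 7 days lay within the range of the 2-day libraries, but its genes did not stay level. Of the 12 neutrophil genes, 2 were higher and 6 lower at 7 days than at 2 days, where 48.7% of all genes were called. Csf3r averaged 697 ± 119 CPM at 7 days and 2050 ± 1220 CPM at 2 days (log2 fold change -1.56). Camp went the other way, at 4790 ± 368 CPM and 2260 ± 192 CPM (log2 fold change 1.08). The part of these cells in the AP-1 levels was not tested.

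The genes whose pattern over the 12 libraries was most like that of a family member were ranked by the root mean square difference of centred log2 CPM among 8941 well expressed genes. For Fos these were St3gal6 (0.227), Mirt1 (0.268) and Il15ra (0.282), where the root mean square of Fos itself about its mean was 1.05. For Junb they were Amdhd2 (0.175), Carns1 (0.176) and B3gntl1 (0.187), where that of Junb was 0.981. For Jun they were Zfhx3 (0.235), Agpat4 (0.242) and Cpt1a (0.253), where that of Jun was 0.493. For Atf3 they were Klf4 (0.57), Ccrl2 (0.607) and Ldlrad3 (0.613), where that of Atf3 was 1.4. The Atf3 pattern was therefore matched less closely than that of Fos or Junb. Carns1, for example, averaged 131, 25.3, 129 and 90.3 CPM from 2 days to 6 weeks, a course much like that of Junb. These are descriptions over libraries that share their ages.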

How the data were processed

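RNA of Ly6G+ spleen cells was sequenced at 4 ages, in 3 libraries each. As stated in the labels' protocols, polyadenylated RNA extracted with Trizol was converted to cDNA with random hexamers and amplified by PCR. The authors deposited whole-number counts per gene, and the build mm10, RSEM 1.2.3 and DESeq2 appear in the submitters' processing notes, with no step named for each. RSEM gives estimated counts, so the deposited counts may be rounded estimates. Of 38887 gene identifiers, 37570 were given a symbol and position from GENCODE M21, and the remaining 1317 were kept in the totals only. Totals of 34495767 to 38795913 counts make counting error small except for Fosl1 at 6 weeks.

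TMM factors (edgeR) were used to normalize, and genes were filtered with filterByExpr (minimum count 10). The test was edgeR's quasi-likelihood test (edgeR 4.0.16, limma 3.58.1, R 4.3.3) in a model over all 12 libraries with age as the only term, and Benjamini-Hochberg adjustment ran over 15494 genes. Fold changes are older over younger age, and an SE was obtained from the log2 fold change and the F statistic as |log2 fold change|/√F. The procedure was tested on simulated data. Lengths are unions of GENCODE M21 exons, and promoter sequences are those of RefSeq (GRCm38.p6).

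The 10 genes and all lists were chosen with earlier results of these data known. All 10 genes are named. Of each pathway list, the genes named are the 2 called members with the largest absolute log2 fold change at 7 days over 2 days and at 6 weeks over 7 days. Mapk13 and Map2k3 at 7 days over 2 days were added outside this rule. A gene that this rule named is not reported here. Most alike genes were sought among genes with a mean of at least 5 CPM, without predicted genes and pseudogenes. Alternatives were DESeq2 1.42.0, limma-voom, other scalings, no filter, only the ages compared, the replicate block and leaving out each library. Leaving out together both libraries that stand apart was added after seeing the data.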

Additional observations from a re-analysis of the deposited data

How the results depend on the processing

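Of 30 calls of a gene in a pair of ages, 25 were kept under every alternative, and among 600 alternative values 571 kept their direction and call, 29 kept the direction but lost the call, and 0 reversed. Among differences that had not passed, 38 alternative values were called. The calls that some alternative lost were Jun and Batf at 7 days over 2 days, Batf at 14 days over 2 days, and Jun and Maff at 6 weeks over 2 days. The number of genes called at 6 weeks over 14 days was 4, but 8 when libraries were scaled by their totals alone, all of them lower. It was 4 to 7 when each library was left out in turn. The number at 6 weeks over 2 days was 5, and 3 to 7 with a library left out. The causes were not tested. Without replicate 2 at 2 days these counts were 7 and 3. Library-total scaling moved the median log2 fold change of all genes to 0.139 at 7 days over 2 days and to -0.162 at 6 weeks over 7 days.

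Whether replicate numbers pair the samples is not known. At 7 days over 2 days the deviations of same-numbered libraries correlated at 0.291, 0.325 and 0.097, and elsewhere at 0.115 or less. Replicates 1 and 2 at 7 days each correlated best with their own number at 2 days, and replicate 3 did not. Deviations from a mean of 3 libraries cannot exclude pairing. With the replicate block, 6 genes were called at 7 days over 2 days in place of 7, Batf being lost (adjusted p = 0.0612 by edgeR), and the counts of the other comparisons did not change.

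Depth limits Fosl1 at 6 weeks, which rests on 51 counts over 3 libraries. Strand, sex and cell makeup were not separated from age.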

Other observations

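Within an age, 1 library often held the highest level of most of the 10 genes. At 2 days replicate 2 was highest for 8 of the 10 genes, and at 14 days replicate 1 was highest for 9 of the 10, Fos being the exception. At 7 days and 6 weeks no library was highest for more than 5. At 6 weeks, however, replicate 2 was lowest for every one of the 10 genes except Fosl1. Its sum over the 10 genes was 5474 CPM, against 7126 and 7214 CPM in its partners. Replicate 2 at 2 days and replicate 1 at 14 days also had the lowest normalization factors of their ages, 0.828 and 0.918.

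Replicate 2 at 2 days and replicate 1 at 14 days were also left out together, a setting chosen after seeing the data. In it, 8 differences passed that had not passed before. They were Fosl1 at 7 days over 2 days (log2 fold change -1.82) and at 14 days over 2 days (-2.10), Batf at 14 days over 7 days (-0.51) and at 6 weeks over 14 days (0.76), and Fos at 6 weeks over 14 days (-0.70). The others were Atf3 at 6 weeks over 2 days (0.82) and over 7 days (0.46), and Maff at 6 weeks over 7 days (0.45). The call of Batf at 7 days over 2 days was lost in this setting (-0.32, adjusted p = 0.0803 by edgeR). The share of all genes called also rose, from 48.7% to 56.6% at 7 days over 2 days. It went from 45.9% to 52.7% at 14 days over 7 days and from 25.1% to 39.3% at 14 days over 2 days. At 6 weeks over 14 days it went from 18.9% to 30.6%.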
